A study of Homo sapiens with 2 samples.

Results

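The 10 genes described here encode enzymes of red cell glycolysis and of its side branch to 2,3-bisphosphoglycerate. They are HK1, HK2, GPI, PFKM, PFKL, ALDOA, ENO1, PKLR, PKM and BPGM, chosen by name from 19821 protein-coding genes. All calls in each gene and 10 kb on each side were taken, which gave 35 of the 26332 called start positions on chromosomes 1 to 22 and X. PRO-cap marks where transcription begins, by letting nuclei extend their nascent RNA with labelled nucleotides and sequencing the 5′ ends. The nuclei came from wild-type HUDEP-2, a human erythroid progenitor line that grows without limit in culture. The series has 1 group with 2 biological replicates, no treatment and no second cell type. HUDEP-2 is a single cell line of progenitors, and mature red cells were not sampled. The deposited positions name no replicate and carry a score of 0 for each call. The depth behind a call and the spread between replicates are therefore unknown, and intervals below cover counting error only. All positions are in hg38.

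Mature red cells have no mitochondria and make their ATP by glycolysis alone. Several steps of the pathway have isoenzymes encoded by separate genes, and tissues differ in which one they use. HK1 and PKLR each have a promoter used in erythroid cells beside promoters used in other tissues, so that red cells contain their own forms of hexokinase and pyruvate kinase. The liver form of pyruvate kinase starts at the downstream member of a pair of first exons of PKLR and the red cell form at the upstream one. BPGM makes 2,3-bisphosphoglycerate, which lowers the oxygen affinity of haemoglobin.

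Erythroid marker genes had calls at their ends. Counting calls within 500 bp of either gene end that pointed into the gene, all 7 erythroid markers reported had one (GATA1, KLF1, ALAS2, HBB, SLC4A1, AHSP and EPOR), against 41.4% of all 19821 coding genes. This count does not use the strand of the gene, so a call at its 3′ end can enter it and need not be a start of the gene. Among the 6 markers of other cells only ITGA2B, a platelet integrin chain, had one, while CD34, CD3E, CD14, ALB and COL1A1 had none.

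Of the 10 genes, 8 had a start call at an annotated start and the exceptions were PKLR and GPI. A start call is a call in the direction of the gene within 500 bp of a listed start, that is, a start in the RefSeq promoter table (GRCh38.p14), which held all 10 genes with 26 listed starts. Of the 15812 protein-coding genes with an entry there, 47.1% (95% Wilson interval 46.3 to 47.8) had a start call. The count was also 8 when only the outermost 5′ end of each gene was used, against 42.9% (42.2 to 43.7) of coding genes, but the genes differed. By the outermost end HK1 had no start call and PKLR had one. The PKLR call, at 155308582, lay 284 bp upstream of the listed start of FDPS, a gene on the other strand. Whether it starts PKLR or belongs to FDPS was not tested, so the count by outermost ends depends on a call of unknown origin. A start call at a listed start with none at the outermost end, as in HK1, was found in 4.96% of coding genes, and the reverse, as in PKLR, in 0.841%. The genes were chosen with earlier results known, and these shares are given as background without a test.

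**Figure D1:**
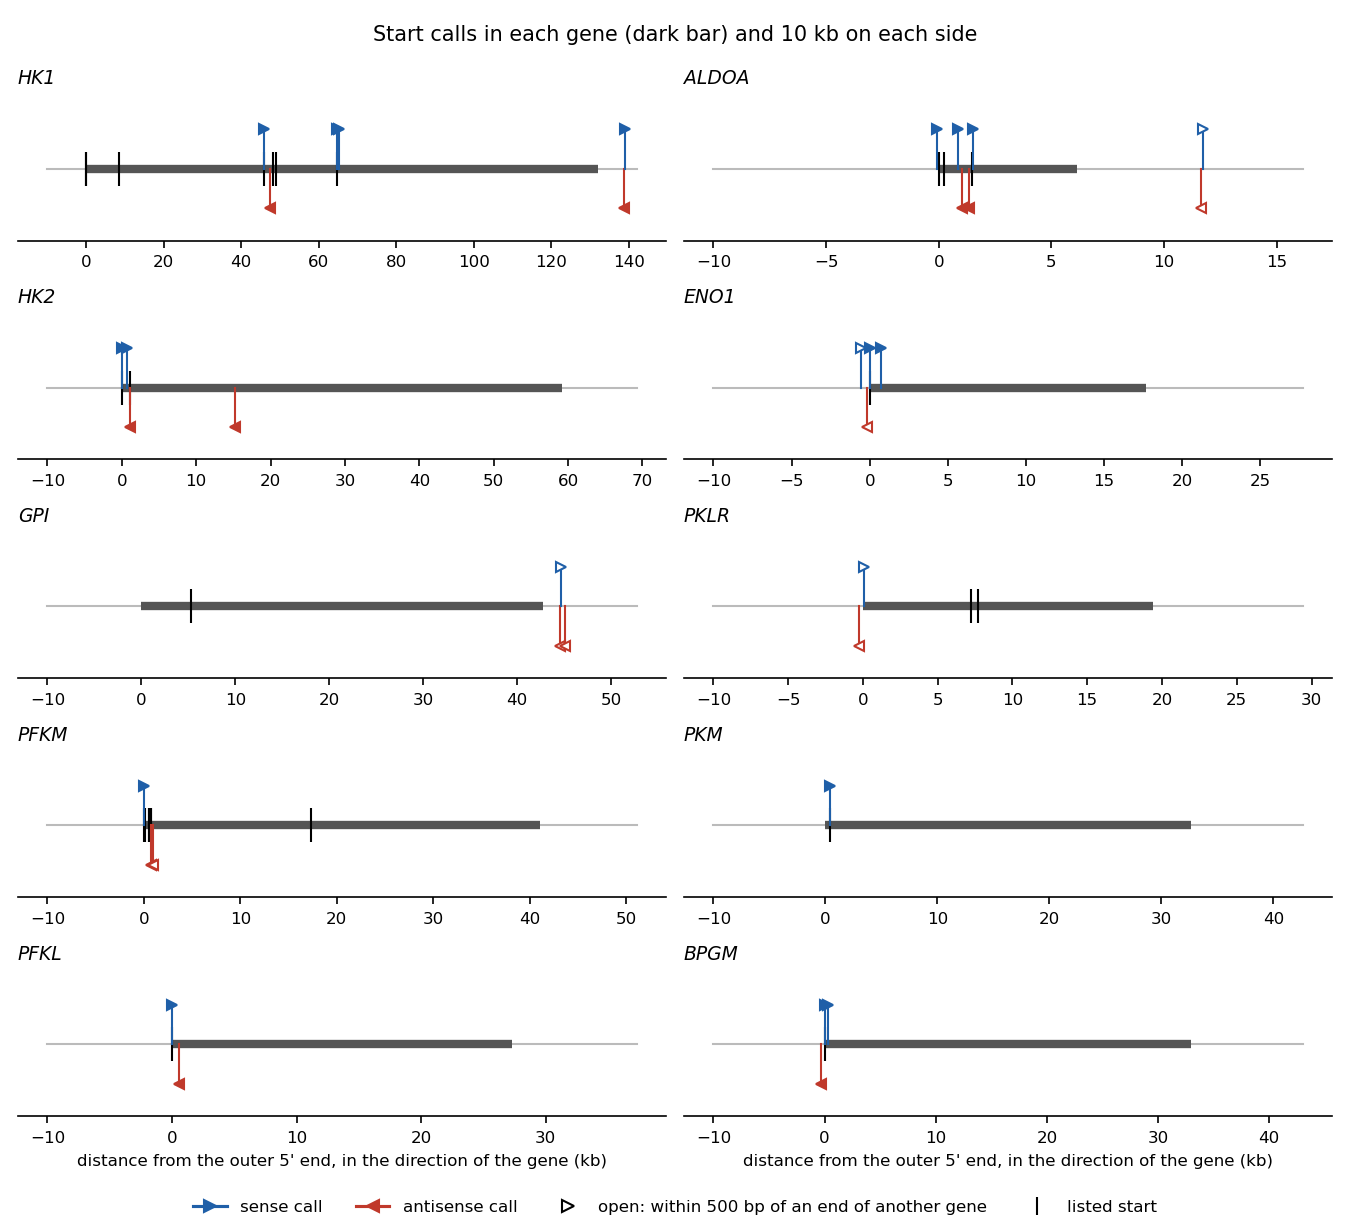
Positions of all calls in the 10 genes and 10 kb on each side. The x axis is the distance in kb from the outermost 5′ end in the direction of the gene (dark bar). Triangles above the line are sense and below it antisense calls, and vertical ticks are listed starts. Open triangles lie within 500 bp of an end of another gene and were not start calls of the gene shown. Start calls are filled also where another gene ends nearby, as in HK2 and ENO1. The first sense call of HK1 lies 45.8 kb inside the gene and the last lies past its 3′ end, and the sense calls of GPI and PKLR lie away from their listed starts.

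HK1 encodes hexokinase 1, which phosphorylates glucose in the first step of the pathway. The gene spans 132 kb of chromosome 10 (69270000 to 69401882, forward strand) and has 7 listed starts, of which 2 had a start call. The first call, at 69315769, lay 45.8 kb inside the gene and fell on a listed start to the base. The second, at 69334613, lay 64.6 kb inside and 1 bp upstream of another listed start. The 5 other listed starts had none. These were at 69270000, 69270005, 69278496, 69318181 and 69319064, and the call nearest to the last of these in the direction of the gene lay 3.29 kb upstream of it. The promoter table does not name the transcript of each start, and exons were not used here. Which HK1 transcript each start belongs to was therefore not read from the table.

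The sequences around the called starts of HK1 and the uncalled starts of PKLR are shown because GATA1 is a main activator of erythroid genes and the known red cell promoter of PKLR contains sites for it. Each line runs from 250 bases before a listed start to 20 bases after its first base, from RefSeq (GRCh38.p14). Capitals mark the letters that GATA factors bind, searched on both strands as 4 words, namely AGATAA or AGATAG and TGATAA or TGATAG.
HK1 start 69315769, chr10:69315519-69315789 (forward strand): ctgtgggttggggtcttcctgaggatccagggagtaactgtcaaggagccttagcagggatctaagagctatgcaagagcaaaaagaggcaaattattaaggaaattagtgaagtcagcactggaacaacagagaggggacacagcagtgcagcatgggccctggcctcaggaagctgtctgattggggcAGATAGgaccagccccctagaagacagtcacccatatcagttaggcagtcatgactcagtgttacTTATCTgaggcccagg
HK1 start 69334614, chr10:69334364-69334634 (forward strand): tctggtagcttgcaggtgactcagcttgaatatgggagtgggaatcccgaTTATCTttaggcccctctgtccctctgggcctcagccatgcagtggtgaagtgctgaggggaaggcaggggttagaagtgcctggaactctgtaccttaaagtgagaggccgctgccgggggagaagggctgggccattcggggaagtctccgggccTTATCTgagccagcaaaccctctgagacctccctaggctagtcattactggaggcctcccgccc
PKLR start 155301438, chr1:155301418-155301688 (reverse strand): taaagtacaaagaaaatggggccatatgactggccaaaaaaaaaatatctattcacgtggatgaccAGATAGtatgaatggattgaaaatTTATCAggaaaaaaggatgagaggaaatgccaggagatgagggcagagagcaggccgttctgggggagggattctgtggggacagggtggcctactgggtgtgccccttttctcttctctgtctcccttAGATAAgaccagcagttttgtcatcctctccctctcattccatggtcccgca
PKLR start 155300952, chr1:155300932-155301202 (reverse strand): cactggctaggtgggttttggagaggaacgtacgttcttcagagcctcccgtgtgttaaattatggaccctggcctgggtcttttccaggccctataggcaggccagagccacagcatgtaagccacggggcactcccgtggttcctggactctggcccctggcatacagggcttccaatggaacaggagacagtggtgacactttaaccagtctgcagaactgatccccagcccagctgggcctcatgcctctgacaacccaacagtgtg
Both called windows of HK1 held such letters. In the first, AGATAG began 60 bases before the start and TTATCT, the reverse complement of AGATAA, began 5 bases after it. The second held TTATCT 200 and 43 bases before the start. Among the uncalled HK1 windows, those of the overlapping starts 69270000 and 69270005 held CTATCT, the reverse complement of AGATAG, and the other 3 held none of the 4 words. In PKLR the upstream window held AGATAG at 184 bases, TTATCA at 160 bases and AGATAA at 31 bases before the start, and the downstream window held none. The same letters were present in 20% (19.4 to 20.5) of the 22132 promoter windows of coding genes and in 12.6% (11.9 to 13.3) of the 9012 windows with a start call. A match is a match of letters and not a measured binding site.

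HK1 contained further calls. A sense call at 69335195 lay 582 bp downstream of the second start call. An antisense call at 69317321 lay 1552 bp downstream of the first start call and 860 bp upstream of the uncalled start 69318181. Beyond the 3′ end of HK1, a reverse call at 69408681 and a forward call at 69409047 lay 366 bp apart, 6.8 and 7.17 kb past the gene and inside TACR2, which encodes a tachykinin receptor. Neither start call of HK1 had a divergent partner, meaning a call on the opposite strand up to 300 bp upstream.

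HK2 encodes hexokinase 2, which like hexokinase 1 can bind to mitochondria. Its 59.2 kb on chromosome 2 (74834127 to 74893359, forward strand) held a start call at 74834126, 1 bp upstream of the first of 2 listed starts. A second sense call at 74834812 lay 686 bp further in and 358 bp upstream of the second listed start, within the 500 bp window of that start. Antisense calls lay at 74835247, 77 bp inside the second listed start, and at 74849275, 15.1 kb inside the gene. The noncoding gene HK2-DT starts on the opposite strand 139 bp upstream of the HK2 call, and no reverse call lay there. HK2 was thus called at its outermost end and HK1 only at internal starts.

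GPI encodes glucose-6-phosphate isomerase, the enzyme of the step after hexokinase, which has no isoenzyme gene. No call lay inside its 42.7 kb on chromosome 19 (34359718 to 34402413, forward strand). The 3 calls of its window lay 1.9 to 2.38 kb past its 3′ end, at 34404312, 34404411 and 34404795. They surrounded the start of the next gene, PDCD2L, and the forward call lay 12 bp inside that start. The single listed start of GPI, at 34364992, was 39.4 kb from the nearest sense call. The last call of either strand before the gene, at 34134611, lay 225 kb upstream, so that GPI sat in a stretch of 270 kb without a call together with LSM14A and GARRE1. Stretches at least as long contained 32.4% of all 19821 protein-coding genes.

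PFKM and PFKL encode the muscle-type and liver-type subunits of phosphofructokinase, both of which are present in red cells. PFKM (chromosome 12, 48105353 to 48146404, forward strand) had 7 listed starts and 1 start call, at 48105352, which lay 1 bp upstream of the first. This call was also within 500 bp of the listed start at 48105481. The next 4 listed starts, between 48105873 and 48106116, and the last, at 48122647, had no start call. PFKM overlaps the start of SENP1, a SUMO protease gene on the opposite strand. Reverse calls at 48106044 and 48106308 lay 692 and 956 bp downstream of the PFKM call, within 500 bp of SENP1 starts, and were the only calls inside PFKM. PFKL (chromosome 21, 44300053 to 44327373, forward strand) had 1 listed start and a start call 20 bp inside it, at 44300073. An antisense call at 44300606 lay 533 bp downstream of it. Neither gene had a divergent partner at its start call.

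ALDOA encodes aldolase A, the aldolase of red cells and muscle. The gene is short, 6.14 kb on chromosome 16 (30064279 to 30070420, forward strand), and its window had 7 calls, the most of the 10 genes. There were 2 start calls. One, at 30064185, lay 94 bp upstream of the first of 3 listed starts, and the other, at 30065791, lay 31 bp inside the third. A further sense call at 30065139 faced an antisense call at 30065301, 162 bp downstream of it. The start call at 30065791 had a divergent partner 165 bp upstream, at 30065626. All calls from 30064185 to 30065791 also lay inside another annotated gene, LOC112694756. The calls at 30075905 and 30076003 formed a divergent pair 98 bp apart at the start of PPP4C, which encodes a phosphatase subunit, and the forward one lay 9 bp inside that start.

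ENO1 encodes enolase 1, the widely expressed enolase. On the reverse strand of chromosome 1 (8861000 to 8878686), it had a start call at 8878687, 1 bp upstream of its single listed start. The divergent partner at 8878854, 167 bp away, lay 19 bp inside the listed start of ENO1-AS1, a noncoding gene on the opposite strand. Other sense calls lay 703 bp downstream of the start call, at 8877984, and 572 bp upstream of it, at 8879259.

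PKLR encodes the liver and red cell forms of pyruvate kinase, which catalyses the last step of the pathway. The gene occupies 19.4 kb of chromosome 1 (155289293 to 155308654, reverse strand). Its 2 listed starts, at 155301438 and 155300952, had no start call, and no call of either strand lay between them and the 3′ end or in the 10 kb beyond it. The nearest sense call, at 155308582, was 7.14 kb upstream of the first listed start and 72 bp inside the outermost end of the gene. It lay 284 bp upstream of the listed start of FDPS, a gene of isoprenoid synthesis on the other strand, and 366 bp from the forward call at 155308948, which was 82 bp inside FDPS. Whether the call at 155308582 starts a transcript of PKLR or belongs to the start of FDPS was not tested. A start without a call may be transcribed below the unknown threshold of the calling.

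PKM encodes the pyruvate kinase of most other tissues. A single call lay in its window on chromosome 15 (72199029 to 72231591, reverse strand), at 72231212, which was 22 bp upstream of the only listed start. Thus the pyruvate kinase gene with a call at a listed start was PKM and not PKLR, while both hexokinase genes described here had start calls.

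BPGM, on chromosome 7 (134646853 to 134679816, forward strand), had a start call at 134646854, 1 bp inside its only listed start. A second start call at 134647150 lay 296 bp downstream. The divergent partner, at 134646563, was 291 bp upstream of the first, close to the limit of 300 bp. All calls of this window also lay inside another annotated gene, LOC124901750.

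**Figure D2:**
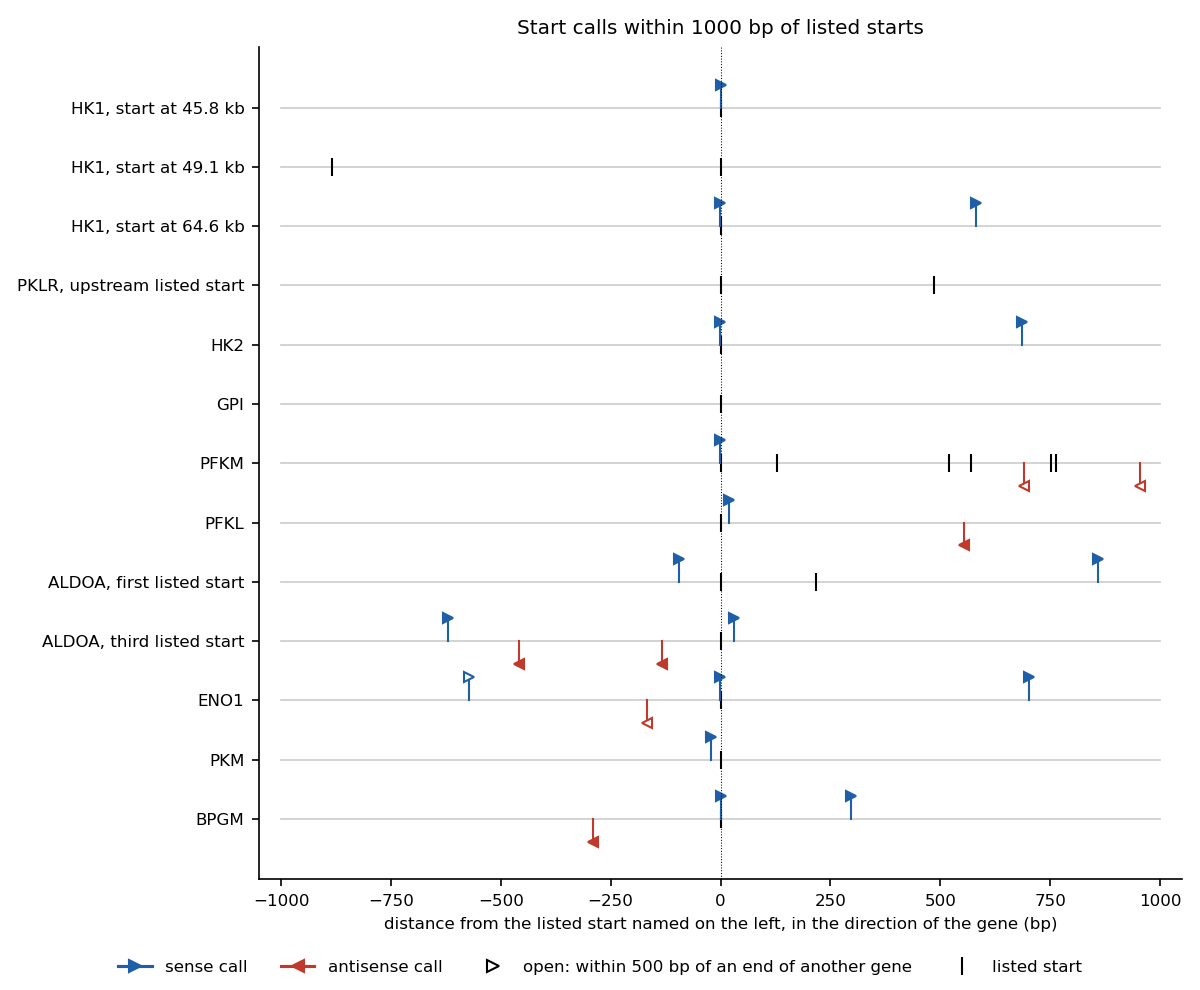
Calls within 1000 bp of 13 listed starts of the 10 genes, 1 per line. The x axis is the distance in bp from the listed start in the direction of the gene. Triangles above each line are sense and below it antisense calls, and ticks are listed starts. Open triangles lie within 500 bp of an end of another gene and were not start calls of the gene shown, while all start calls are filled. Calls sit within 1 bp of the listed start in HK1 (at 45.8 and 64.6 kb), HK2, PFKM, ENO1 and BPGM. No call is seen within 1000 bp in PKLR, in GPI and at the HK1 start at 49.1 kb.

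By definition a start call lies within 500 bp of a listed start. Of the 12 start calls of these genes, 6 were within 1 bp and 9 within 50 bp of a listed start, against 28.2% (27.2 to 29.1) and 73.6% (72.6 to 74.5) of 8906 start calls of coding genes, so that the share within 50 bp was near that over coding genes. Of the 6 calls within 1 bp, HK2, PFKM, ENO1 and the second HK1 call lay 1 bp upstream, BPGM lay 1 bp inside and the first HK1 call lay on the start. The letters at 1 call of each gene, and at both of HK1, are given from the same table with the 35 bases before the call. The called base and the base after it are in capitals, because RNA polymerase II tends to begin on a purine that follows a pyrimidine.
HK1 call 69315769, chr10:69315734-69315778 (forward strand): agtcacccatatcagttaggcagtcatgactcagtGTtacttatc
HK1 call 69334613, chr10:69334578-69334622 (forward strand): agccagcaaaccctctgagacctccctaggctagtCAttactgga
HK2 call 74834126, chr2:74834091-74834135 (forward strand): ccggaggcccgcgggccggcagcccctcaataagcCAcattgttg
PFKM call 48105352, chr12:48105317-48105361 (forward strand): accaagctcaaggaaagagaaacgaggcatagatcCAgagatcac
PFKL call 44300073, chr21:44300038-44300078 (forward strand): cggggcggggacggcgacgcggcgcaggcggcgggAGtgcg
ALDOA call 30064185, chr16:30064150-30064194 (forward strand): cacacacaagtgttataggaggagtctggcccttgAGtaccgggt
ENO1 call 8878687, chr1:8878678-8878722 (reverse strand): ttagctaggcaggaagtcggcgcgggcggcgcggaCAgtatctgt
PKM call 72231212, chr15:72231203-72231247 (reverse strand): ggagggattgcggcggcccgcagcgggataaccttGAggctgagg
BPGM call 134646854, chr7:134646819-134646863 (forward strand): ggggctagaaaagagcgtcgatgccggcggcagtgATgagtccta
The called base and the next were CA in HK2, PFKM, ENO1 and the second HK1 call. These were the 4 calls with a pyrimidine at the call and a purine after it, among the 10 start calls of these genes that lay in a promoter window. In 3 others, the first HK1 call, PKM and the ALDOA call at 30065791, the called base was itself a purine after a pyrimidine. Among 6800 start calls of coding genes in such windows the purine was 1 base downstream of the call in 47.1% and at the call in 30.7%, against 12.5% and 10.7% for the positions 1 base upstream and 2 bases downstream. The 1-base offset was present on both strands, at 46.3% and 47.9%. Positions are printed as deposited. Whether they are shifted by 1 base from the first base of the RNA was not settled, so each printed distance from a listed start, including those of 0 and 1 bp, may be off by 1 base.

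Divergent partners were found for 3 of the 12 start calls, those of ALDOA, ENO1 and BPGM, against 49% (47.9 to 50) of start calls of coding genes. With 12 calls from 8 genes this is a description of these genes. A second sense call followed up to 750 bp downstream of the start call in HK1, HK2, ENO1 and BPGM, that is, for 4 of 12 start calls, against 16.9% (16.1 to 17.7) over coding genes. This distance was chosen after the positions were seen. The closest pair of calls on 1 strand anywhere in the data was 251 bp apart.

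Inside the 10 genes there were 12 sense and 8 antisense calls (40% antisense), near the 37.7% over all coding genes. Antisense calls inside were found in 5 genes (HK1, HK2, PFKM, PFKL and ALDOA), against 23.2% (22.5 to 23.8) of coding genes. That share includes coding genes without a start call. PFKM was counted only through calls within 500 bp of SENP1 starts. A call of either strand lay inside 9 of the 10 genes, against 45.6% (44.8 to 46.4). All 10 genes had at least 1 call in the gene or 10 kb on each side, against 60.8% (60.1 to 61.6), with a range of 1 to 7 and a median of 3. The median was 1 over all coding genes and 3 over coding genes with a start call. Of the 35 calls, 11 were not start calls of the 10 genes and lay within 500 bp of an end of another gene, including all calls of GPI and PKLR.

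The called starts differed in base composition. The CpG ratio, the number of CG pairs over that expected from the C and G content of the 300 bp promoter window, is high in promoters that lie in CpG islands. It was 0.94 at the first start of HK2, 0.89 in PFKL, 0.94 at the third start of ALDOA, 0.88 in ENO1, 0.98 in PKM and 0.69 in BPGM. The called starts of HK1 had ratios of 0 and 0.23. Its uncalled starts 69318181 and 69319064 had 0.5 and 0.9, and its 3 other uncalled starts had 0.06 each. In PFKM the called starts had 0.39 and 0.46, the next 4 listed starts, which were not called, 0.62 to 0.74, and the last, also not called, 0.06. The first and second listed starts of ALDOA, both called through the call at 30064185, had 0.43 and 0.26. Both uncalled starts of PKLR were below 0.5 as well (0.23 and 0.2), and GPI had 0.54. Over the 10 genes, 6 of 13 called and 6 of 13 uncalled starts had a ratio below 0.5. In PFKM and in ALDOA the first and second listed starts share a call, so called starts are not all separate calls. Over coding genes 57.8% (57 to 58.5) of windows with a ratio of 0.5 or more had a start call, against 5.65% (5.14 to 6.21) of those below 0.5.

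**Figure D3:**
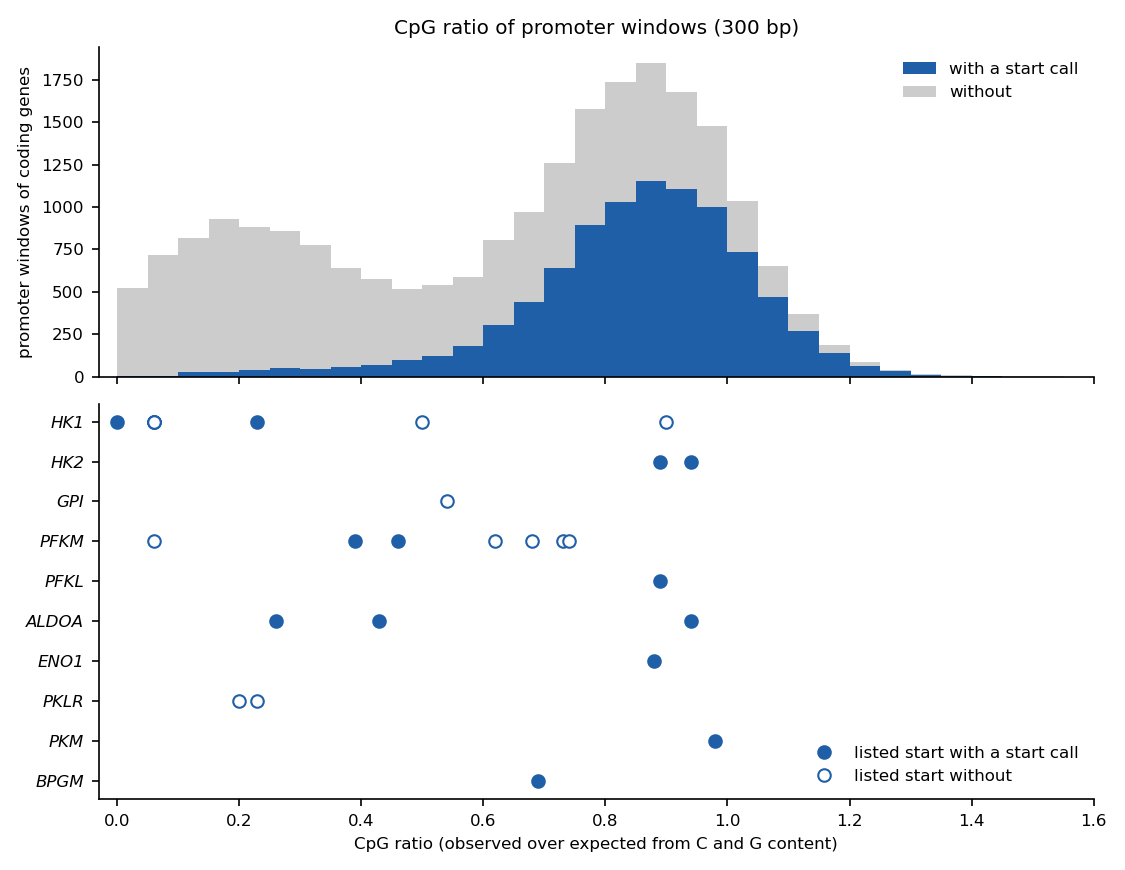
CpG ratio of 300 bp promoter windows. The upper panel stacks the number of windows of coding genes with and without a start call by ratio, and in the lower panel each point is 1 listed start of a gene, filled where it had a start call. The filled points of HK1 lie at 0 and 0.23, and those of HK2, PFKL, ENO1 and PKM at 0.88 or above.

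The other words searched were common in promoters. CACCC, a core that KLF1 and related factors bind, was in 18 of the 26 windows and 8 of the 10 genes, but not in PKM or BPGM, against 63.4% of all windows of coding genes. CCNCNCCC, which overlaps it, was in 18 windows (65.9% of all). GGGCGG, the core bound by SP factors, was in 13 windows (56.3%), CCAAT in 9 (34.6%), ACGTG in 10 (23.1%), GCGTG in 7 (43%), CANNTG in 12 (65.1%) and TATAAA in 1 (9.46%). The single TATAAA match was on the reverse strand of the first PFKM window. One of the 4 GATA words was in 7 windows of 3 genes, HK1, PFKM and PKLR. By word, AGATAA was in 4 of the 26 windows (7.88% of all windows of coding genes), AGATAG in 6 (5.39%), TGATAA in 3 (5.56%) and TGATAG in 0 (4.6%). In the first PFKM window AGATAA began 208 bases before the start, TGATAA 104 bases and AGATAG 77 bases. Windows of 1 gene can overlap, as in HK1 and PFKM, so that they are not independent.

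Across the rest of the pathway the isoenzymes of a step differed in their calls. HK3 and HKDC1 had no start call, nor did the muscle mutase PGAM2, the testis genes PGK2, LDHC and GAPDHS or the enolases ENO2, ENO3 and ENO4. Start calls were present for PFKP, 423 bp upstream of a listed start, for ALDOC, for the single-gene enzyme TPI1, for PGK1 and for the lactate dehydrogenases LDHA and LDHB. GAPDH, PGAM1 and ENO3 had calls at the outermost gene end but at none of the listed starts. By list, a start call was found for 1 of 3 other genes of glucose phosphorylation (ADPGK, which uses ADP as the phosphate donor, not HK3 or HKDC1), 2 of 2 other phosphofructokinase and aldolase genes, 2 of 10 other enzymes of lower glycolysis and 2 of 4 lactate dehydrogenases. It was found for 3 of 5 regulators (PFKFB3, TIGAR and MINPP1, not PFKFB1 or PFKFB4), 3 of 4 transport genes (SLC2A1, SLC16A3 and BSG, not SLC2A2) and all 6 genes of the pentose phosphate pathway examined (PGLS, PGD, RPIA, RPE, TKT and TALDO1). In all, 19 of these 34 genes had one (55.9%, 39.5 to 71.1), beside the 47.1% over coding genes. For PFKFB2, SLC2A3, SLC2A4 and SLC16A1 only the ends of the gene were used. Of these 4, SLC2A3, SLC2A4 and SLC16A1 had a call pointing into the gene within 500 bp of an end, against 41.4% (40.7 to 42.1) of all 19821 coding genes by this rule.

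**Figure D4:**
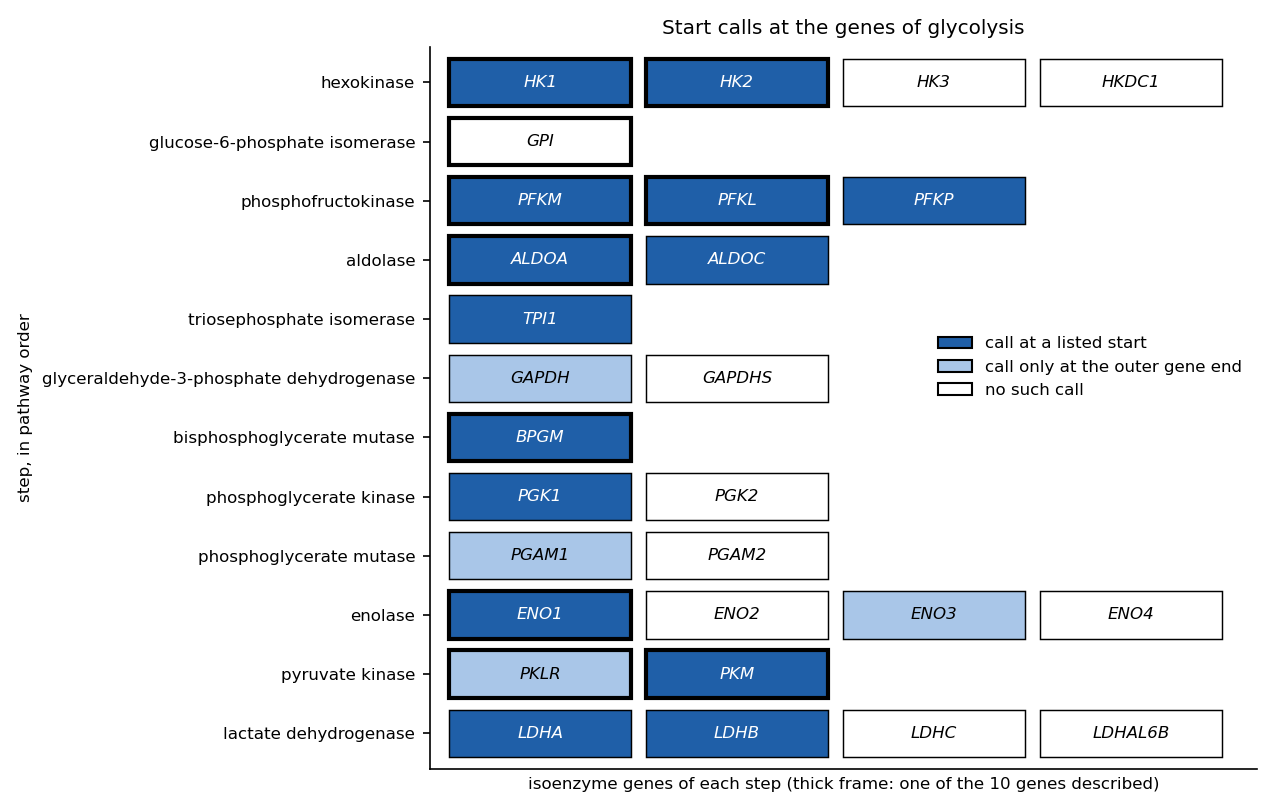
Genes of glycolysis by step, in pathway order from top to bottom, with 1 box per isoenzyme gene. Dark blue boxes had a call at a listed start, light blue boxes only at the outermost gene end, and white boxes neither, with thick frames around the 10 genes described. Among the framed genes GPI is white and PKLR light blue, the latter through a call near the start of FDPS.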

How the data were processed

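PRO-cap calls from wild-type HUDEP-2 cells (2 biological replicates) were used. The positions that the authors deposited, in 1 list per strand, are coordinates and no other measurement. The deposited score column holds 0 in each of 26395 lines. BWA 0.7.16a, Picard, SAMtools 1.17, deepTools 3.5.4 and hg38 are named, per the submitters' processing notes. The names of the deposited lists contain TSScall. Beyond that name, how calls were made and replicates combined is not given in the sources used here. Whether annotated starts entered the calling is therefore unknown.

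Calls on chromosomes 1 to 22 and X (26332) were set against RefSeq tables of GRCh38.p14, the build of hg38. Outer gene ends came from the gene table. Strand and listed starts came from the promoter table, which held 15812 of 19821 protein-coding genes. Python 3.11.15, pandas 2.3.3 and scipy 1.17.1 were used. Shares have 95% Wilson intervals.

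Start calls lay within 500 bp, with 200 and 1000 bp as alternatives. Flanks of 0, 5 and 20 kb and partner distances of 150 and 500 bp were also tried. Listed starts, the CpG ratio and the second sense call were added after the data were seen. The 10 genes and all lists were chosen with earlier results of these data known. The text names the 10 genes, the genes whose ends took calls in their windows, and other lists by counts, with all genes where 5 or fewer fell on 1 side and the isoenzymes of the same steps. Some items that this rule names are not reported here. LSM14A and GARRE1 were named after the call-free stretch was seen, and TACR2, LOC112694756 and LOC124901750 because calls lay inside them.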

Additional observations from a re-analysis of the deposited data

How the results depend on the processing

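The 8 of 10 genes with a start call at the outermost 5′ end became 7 with a 200 bp window, against 39.9% of coding genes. PKM, with its call 379 bp inside that end, drops out there. The count was 8 with a 1000 bp window (45.5% of coding genes) or with any sense call inside the gene (40.8%). It was also 8 with listed starts at 500 bp (47.1%) or 50 bp (40%). These equal counts were not of the same genes. The outermost end left out HK1 and GPI, any sense call inside left out PFKM and GPI, and listed starts left out PKLR and GPI. By the outermost end and by any sense call inside, PKLR was counted only through its call near the start of FDPS. The count of 10 genes with any call became 9 with no flank (45.6% of coding genes) and stayed 10 with 5 kb (58.3%) or 20 kb (65%). It was 8 without calls at ends of other genes, for which no share over coding genes was computed. Partners were found for 3 of the 12 start calls at 300 and at 500 bp, against 49% and 61.1% of start calls of coding genes. At 150 bp they were found for 0, against 24.4%, since the partners lay 165, 167 and 291 bp away. Without the first and last 500 bp of each gene the sense calls inside fell from 12 to 7, because start calls are left out by construction, and the antisense calls stayed at 8. The promoter table held 34 of the other genes of glucose use. At the outermost end 21 had a start call with windows of 200, 500 and 1000 bp, against 39.9%, 42.9% and 45.5% of coding genes. At listed starts 19 had one, against 47.1%. No paired analysis was possible because the deposited positions name no replicate and there is 1 group, and leaving out a replicate was not possible for the same reason. Strength and depth of each call are unknown, which limits what a missing call shows.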
